A study of Mus musculus with 20 samples.

Results

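Liver taken 6 h after partial hepatectomy was compared with liver taken 14 d or 21 d after the same operation, when regrowth is late. The comparison used 6 of the 20 RNA sequencing libraries: 2 at 6 h, and 4 of late regrowth, 2 at 14 d and 2 at 21 d. All 6 came from mice of genotype C57BL/6 in which 70% of the liver had been removed, so that both groups carried the operation and differed in the time since it. Late regrowth served as the reference because the 2 undamaged libraries disagreed with each other, with the acute-phase gene Saa1 at 20927 and 19.9 FPKM. FPKM is fragments per kilobase of exon per M fragments (M, 1000000), as deposited. Genes at 1 FPKM or more in at least 2 of the 6 libraries were compared, which kept 10834 of 54532. Per the growth protocol the RNA came from freshly isolated hepatocytes, but only the replicate 1 libraries carry a cell type label, and age, sex and time of day are not given. The series text describes a second submission that covers the 8 times after hepatectomy, which was taken to be replicate 2 of each time. Whether replicates were separate animals is not stated by the labels, and p-values therefore reflect the spread of these libraries alone, which may be technical.

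After partial hepatectomy the remaining lobes grow until liver mass is restored. The first hours form a priming phase, in which hepatocytes leave quiescence: immediate early transcription factors are induced and interleukin 6 from resident macrophages activates STAT3 in hepatocytes. Triglyceride from fat tissue enters the remnant and accumulates in lipid droplets before DNA synthesis begins, while the differentiated programme of bile acid, drug and nitrogen metabolism is shared among far fewer cells.

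The libraries held 17.3 and 41.0 M recovered reads at 6 h and 13.7 to 25.5 M in late regrowth. Spearman's rho across the 10834 genes was 0.833 between the 6 h libraries, 0.925 to 0.953 among the late ones and 0.663 to 0.761 between the groups. Mitochondrial transcripts took 20.9% (replicate 1) and 40.7% (replicate 2) of reads at 6 h, against 4.13% to 8.41% in late regrowth, and FPKM summed to 439907 and 951765 at 6 h, against 392291 to 446370. The 10 hepatocyte markers, all tested, summed to 26221 and 38799 FPKM at 6 h, against 45895 to 79150 in late regrowth. By the rule given below, 1 was called higher and 1 lower, with a median difference of -0.37 (log2). Of these markers, Hnf4a, a master regulator of the hepatocyte programme, was at 80.8 and 87.0 FPKM at 6 h, against 85.5, 59.6, 103 and 62.6 in late regrowth. Alb, encoding albumin, was at 12875 and 13547 FPKM at 6 h, against 23936 to 61188, with no overlap between the groups (limma adjusted p = 0.0597).

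Expression differed widely between 6 h and late regrowth. A gene was called at a Benjamini-Hochberg adjusted p under 0.05 in limma and a difference of at least 1 on the log2(FPKM + 1) scale, 6 h minus late. By this rule 1144 genes (10.6% of those tested) were higher and 1081 (9.98%) were lower at 6 h, 2225 (20.5%) in all. The median difference of all genes was -0.03, with quartiles at -0.56 and 0.51. The 6 h libraries stood outside the range of the late libraries for 5672 genes (52.4%), including every called gene. Within each submission, where 1 library at 6 h faces 2 late ones, 721 of the higher genes and 670 of the lower ones passed a difference of 1 in both. The filter kept 516 genes that were under 1 FPKM in every late library, 313 of them called higher, and 630 that were under 1 in both 6 h libraries, 137 of them called lower.

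Of the 10 genes with the largest increase at 6 h, Gadd45g (ENSMUSG00000021453, chromosome 13, 51846678 to 51848468 on mm10), a stress-inducible regulator of MAP kinase signalling, was at 439 and 655 FPKM at 6 h, against 16.2 and 8.23 at 14 d and 2.15 and 6.65 at 21 d. Both 6 h libraries were far above every late one, and the difference was 6.09 ± 0.62 (log2, SE; limma adjusted p = 0.00192). Cidec (ENSMUSG00000030278, chromosome 6, 113424634 to 113435760), which fuses lipid droplets, was at 50.8 and 99.8 FPKM at 6 h, against 0.913, 0.551, 2.26 and 0.114 in late regrowth, a difference of 5.32 ± 0.45 (limma adjusted p = 0.00125). Fabp4, a fatty acid carrier of adipocytes and macrophages, was at 61.6 and 132 FPKM at 6 h, against 1.32 to 3.08 in late regrowth (4.99 ± 0.36, limma adjusted p = 0.00123). These genes were higher in both submissions.

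Mt1 and Saa2 rose as well, with a wide spread between the late libraries. Mt1, which binds zinc and copper, was at 2286 and 6895 FPKM at 6 h, against 1008 and 12.5 at 14 d and 127 and 5.25 at 21 d (6.11 ± 1.90, limma adjusted p = 0.0465). Replicate 1 of 14 d stood nearest to the 6 h libraries, and the call was lost when any one library other than 14 d replicate 1 was left out (5.04 to 6.91). Saa2, an acute-phase lipoprotein, was at 2731 and 8243 FPKM at 6 h, against 548, 53.4, 102 and 6.20 in late regrowth (6.11 ± 1.51, limma adjusted p = 0.0224). Its call was lost without either 6 h library or without 14 d replicate 2 (5.32 to 6.91). Saa2 shares near-identical sequence with Saa1, so the split of reads between them is uncertain.

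The 4 globin genes among the 10 largest increases, with near-identical pairs within the alpha and beta loci, were set mainly by 1 library. Hba-a1 was at 3459 FPKM in replicate 1 and 356 in replicate 2 at 6 h, against 4.96, 72.2, 4.56 and 19.2 in late regrowth (6.22 ± 1.25, limma adjusted p = 0.0114). Without 6 h replicate 1 the call was lost (4.58), as it was for Hbb-bs (3.45), Hbb-bt (3.71) and Hba-a2 (3.58, and 4.53 and lost also without either replicate 1 late library). The 9 erythroid markers summed to 7093 and 583 FPKM at 6 h, against 36.9 to 169 in late regrowth. Of 6 tested, 5 were called higher, and 1 was without 6 h replicate 1. Slc4a1, the red cell anion exchanger, reached at most 0.313 FPKM in the 6 libraries. The part of blood cells in these results was not tested.

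**Figure D1:**
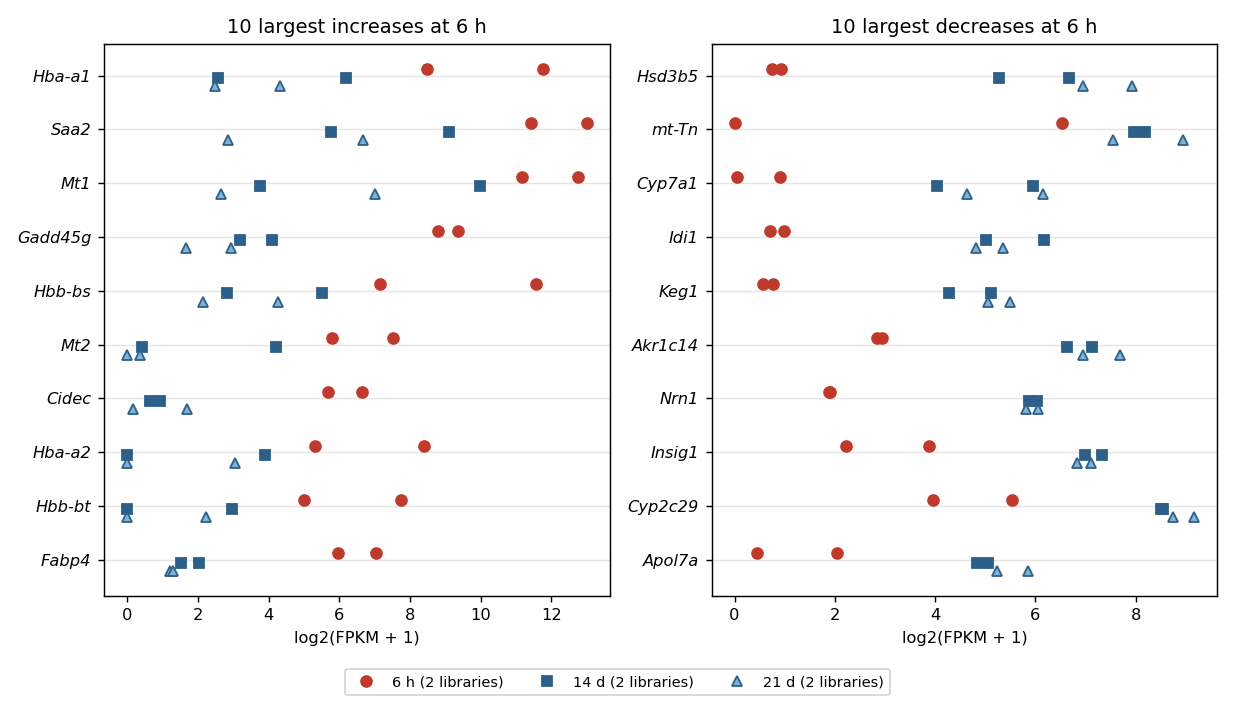
Levels of the 10 genes with the largest increase (left) and the 10 with the largest decrease (right) at 6 h, as log2(FPKM + 1) on the horizontal axis, 1 point per library (red circles 6 h, squares 14 d, triangles 21 d). Gadd45g, Cidec and Fabp4 show tight, well separated groups, while Mt1 and the globin genes spread widely; mt-Tn was at 91.8 FPKM in 1 of the 6 h libraries and listed at 0 in the other.

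Of the 10 genes with the largest decrease, Hsd3b5 (ENSMUSG00000038092, chromosome 3, 98618634 to 98630252), a male-biased steroid-reducing enzyme, was at 0.895 and 0.675 FPKM at 6 h, against 37.8 and 100.7 at 14 d and 243 and 122 at 21 d. The 6 h libraries were both under 1 FPKM and the difference was -5.87 ± 0.65 (limma adjusted p = 0.00230). Cyp7a1, the rate-limiting enzyme of bile acid synthesis, was at 0.0369 and 0.868 FPKM at 6 h, against 61.2, 15.5, 70.1 and 23.9 in late regrowth (-4.72 ± 0.63, limma adjusted p = 0.00336). The others were the sterol genes Idi1 (-4.50) and Insig1 (-4.02), the acyltransferase Keg1 (-4.31), the hydroxysteroid dehydrogenase Akr1c14 (-4.22), Nrn1 (-4.05), the drug-metabolising Cyp2c29 (-4.0), Apol7a (-3.99) and the mitochondrial tRNA mt-Tn (-4.90). The call of mt-Tn was lost without any one library except 6 h replicate 1 (-5.10 to -1.63), and the other 9 kept theirs without any one library.

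Immediate early transcription factors were higher at 6 h. Of 8 tested members of the AP-1 family, whose dimers bind promoters of growth genes, 7 were called higher and 0 lower, with a median difference of 1.60 against -0.03 for all genes. Junb, which pairs with Fos proteins, was at 116 and 104 FPKM at 6 h, against 13.2, 32.7, 7.50 and 6.48 in late regrowth (3.07 ± 0.59, limma adjusted p = 0.00979). Atf3, induced by stress and by hepatectomy, was at 4.62 and 3.57 FPKM at 6 h, against 0.522 to 1.01 in late regrowth (1.59 ± 0.19, limma adjusted p = 0.00250). Fos was at 17.8 and 7.24 FPKM at 6 h, against 0.288, 5.85, 0.571 and 0.688 in late regrowth (2.50 ± 0.69, limma adjusted p = 0.0315), so that 14 d replicate 2 came close to the lower 6 h library. Jun was at 13.6 and 16.0 FPKM at 6 h, against 2.56 to 8.72 in late regrowth (1.61 ± 0.39, limma adjusted p = 0.0213). The Fos call was lost without any one of 6 h replicate 1, 14 d replicate 1 and either 21 d library (1.91 to 2.37), and the Jun call without any one of the 6 h and 21 d libraries (1.5 to 1.72). The count of 7 was 4 without either 6 h library and 3 without either 21 d library, with the undamaged libraries as reference or with every library rescaled to the same sum.

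Among 34 other early response genes tested, 20 were called higher and 0 lower (median 1.57), a count that was 12 without 6 h replicate 1, 10 with the undamaged libraries as reference and 9 with every library rescaled to the same sum. Plk3, a stress-responsive polo-like kinase, was at 136 and 115 FPKM at 6 h, against 10.7, 8.52, 4.71 and 3.94 in late regrowth (4.08 ± 0.38, limma adjusted p = 0.00158). Ier3, an early gene that restrains cell death, was at 38.8 and 11.8 FPKM at 6 h, against 0.432 to 1.02 in late regrowth (3.73 ± 0.42, limma adjusted p = 0.00230). Myc, a driver of growth and ribosome production, was at 9.14 and 7.33 FPKM at 6 h, against 2.43, 1.51, 0.704 and 0.699 in late regrowth (2.04 ± 0.32, limma adjusted p = 0.00519). Cebpb, a liver-enriched factor needed for regeneration, was at 174 and 181 FPKM at 6 h, against 59.3, 70.2, 27.9 and 19.8 in late regrowth (2.16 ± 0.53, limma adjusted p = 0.0219; 2.0 to 2.19 and not called without either 6 h library or 21 d replicate 1). Egr1 did not pass: it was at 53.8 and 8.10 FPKM at 6 h, against 5.85, 13.5, 2.51 and 8.55, so the groups overlapped.

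Genes listed for interleukin 6 family signalling and its feedback were higher in part. Activity of interleukin 6 or STAT3 itself was not tested. Of 16 tested members of the IL-6 family list, 7 were called higher and 0 lower (median 0.86), but 2 and 1 with the undamaged libraries as reference (median 0.23). The median was 0.40 with every library rescaled to the same sum. Socs3 (ENSMUSG00000053113, chromosome 11, 117966079 to 117970047), the STAT3-induced inhibitor of the IL-6 receptor, was at 94.9 and 59.4 FPKM at 6 h, against 4.54, 2.99, 3.11 and 1.58 in late regrowth (4.28 ± 0.34, limma adjusted p = 0.00125). Pim3, a survival kinase, was at 128 and 150 FPKM at 6 h, against 22.9, 19.2, 12.2 and 7.97 (3.17 ± 0.42, limma adjusted p = 0.00327). Osmr, the receptor chain for oncostatin M, was at 3.44 and 2.22 FPKM at 6 h, against 0.221 to 0.486 (1.52 ± 0.21, limma adjusted p = 0.00353). Bcl3, Socs1, Pim1 and Cish were the other called members, while the receptor chains Il6ra and Il6st, the kinases Jak1 and Jak2 and the factor Stat3 were not called.

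**Figure D2:**
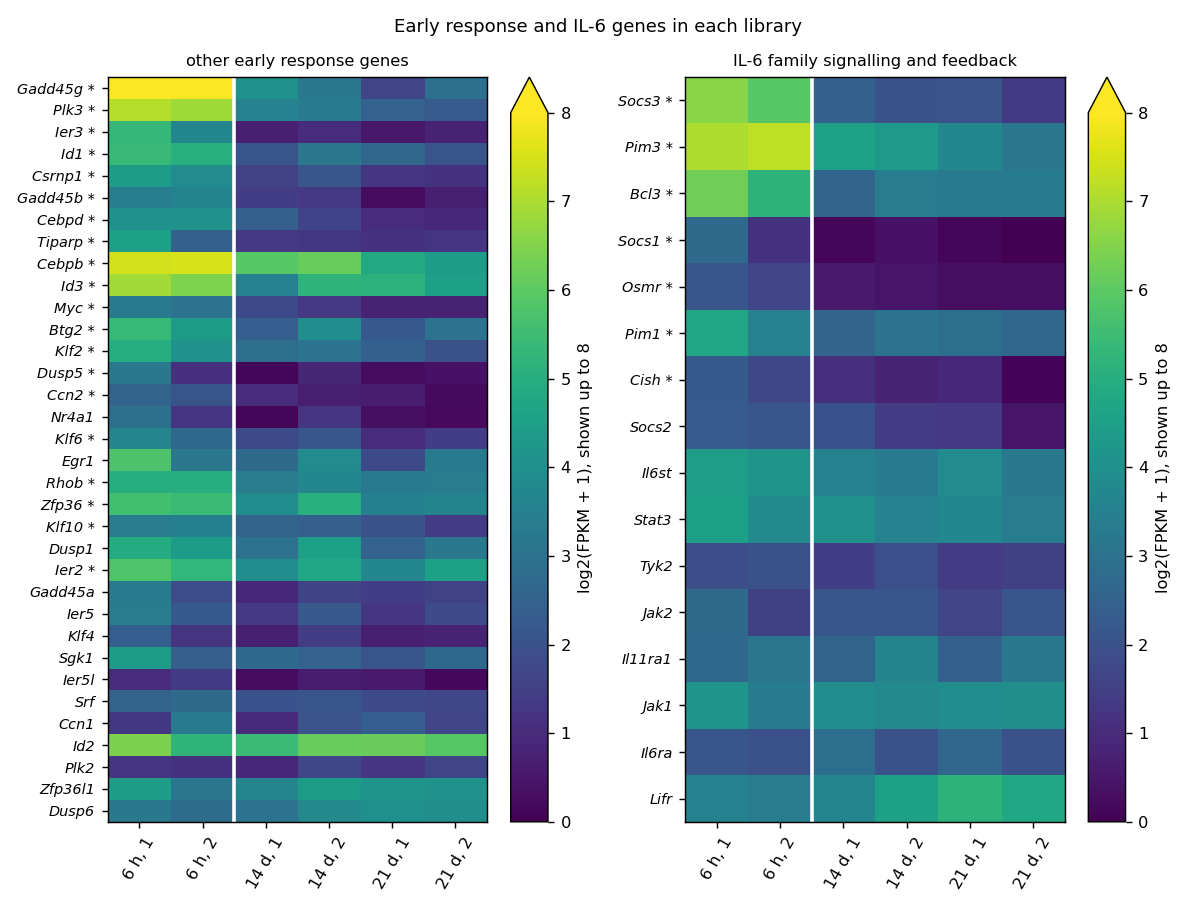
Heat maps of log2(FPKM + 1) for the tested early response genes outside the AP-1 family (left) and the IL-6 list (right), 1 column per library with 6 h left of the white line and late regrowth right of it, ordered by difference; an asterisk marks a called gene. The calls, 20 of 34 and 7 of 16, gather at the top of each map, and no gene at the bottom was called lower.

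Promoters of early genes can show the elements through which these factors act. The 250 bases before the RefSeq start (GRCm38.p6) of Socs3 and of Btg2, an early antiproliferative gene at 39.7 and 19.6 FPKM at 6 h against 3.59 to 14.2 in late regrowth (called at 1.97, but not without 6 h replicate 1, either late replicate 1 or 21 d replicate 2, 1.48 to 2.02), are shown with a STAT element (TTCNNNGAA) in capitals for Socs3, chr11:117969367-117969616 on the minus strand, and a cAMP response element (TGACGTCA) for Btg2, chr1:134079156-134079405 on the minus strand.
Socs3: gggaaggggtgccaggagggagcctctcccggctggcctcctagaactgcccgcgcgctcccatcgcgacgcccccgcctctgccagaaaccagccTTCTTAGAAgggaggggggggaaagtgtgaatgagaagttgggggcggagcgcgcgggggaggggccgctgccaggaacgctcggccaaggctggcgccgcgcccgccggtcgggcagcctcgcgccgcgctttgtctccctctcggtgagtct
Btg2: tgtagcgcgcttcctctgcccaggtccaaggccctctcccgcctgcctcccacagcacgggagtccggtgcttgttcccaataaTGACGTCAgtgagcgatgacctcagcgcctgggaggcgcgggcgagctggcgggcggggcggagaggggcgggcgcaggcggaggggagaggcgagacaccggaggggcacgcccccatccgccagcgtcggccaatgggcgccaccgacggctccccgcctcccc
The STAT element of Socs3 began 154 bases before the RefSeq start and the element of Btg2 166 bases before it. The RefSeq start used for Socs3 lies inside the gene coordinates given above, and so does its whole window. Windows from 250 bases before to 50 after the start were read on both strands. In them TTCNNNGAA was found for 2 of 7 called IL-6 list genes with a promoter in the table (28.6%). It was found for 2 of 15 tested genes of that list (13.3%), 8.15% of all tested genes and 9.55% of all 27025 genes in the table. Among acute-phase genes it was found for 7 of 23 tested (30.4%) and 2 of 9 called higher. TGACGTCA was found for 4.53% of the genes called higher, 1.68% of those called lower and 3.51% of those tested, and TGACTCA, the AP-1 site, for 4.27%, 5.80% and 4.61%. A match is only a description of these letters.

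Acute-phase reactants, secreted by hepatocytes on cytokine signals, were higher in part. Of 28 tested, 10 were called higher and 1 lower (median 1.40), but the higher count was 4 without either 6 h library or 21 d replicate 1, 2 without 14 d replicate 2 and 5 without 21 d replicate 2. It was 0 with the undamaged libraries as reference, where the median was 0.05. Serpina3n, a protease inhibitor, was at 2298 and 2327 FPKM at 6 h, against 581, 200, 282 and 181 in late regrowth (3.05 ± 0.52, limma adjusted p = 0.00698). Saa1 was at 2606 and 5191 FPKM at 6 h, against 1163, 227, 312 and 19.1 in late regrowth, without overlap but with a limma adjusted p = 0.0589. Crp, C-reactive protein, fell to 46.3 and 72.4 FPKM at 6 h, against 105.1 to 177 in late regrowth (-1.23 ± 0.34, limma adjusted p = 0.0335; -1.25 to -0.91 and not called without 6 h replicate 1, either 14 d library or 21 d replicate 2). Hamp, the iron hormone hepcidin, was at 1767 and 10678 FPKM at 6 h, against 317, 301, 1606 and 286 (3.24 ± 0.95, limma adjusted p = 0.0383), and its call was lost without 6 h replicate 2, either 14 d library or 21 d replicate 2 (1.95 to 3.07).

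Chemokines went both ways. Of 15 tested, 5 were called higher and 3 lower (median 0.24, or -0.12 with every library rescaled to the same sum). Cxcl1, which attracts neutrophils, was at 376 and 89.4 FPKM at 6 h, against 5.17 to 12.5 in late regrowth (4.29 ± 0.57, limma adjusted p = 0.00343). Cxcl10, an interferon-induced ligand of T cells, fell to 0.205 and 0.166 FPKM at 6 h, against 1.58 to 2.13 (-1.25 ± 0.16, limma adjusted p = 0.00326). Without 6 h replicate 1 or either 21 d library 3 were called higher. Interferon response genes gave 7 lower and 3 higher calls of 31 tested (median -0.68; 4 lower without 6 h replicate 1 or 14 d replicate 1, and 1 higher without 6 h replicate 1 or either 21 d library; 2 lower with the undamaged libraries as reference and 13 with every library rescaled to the same sum), with the RNA sensor Ifih1 at 1.74 and 1.76 FPKM at 6 h, against 4.89 to 6.92 in late regrowth (-1.36 ± 0.18, limma adjusted p = 0.00350).

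Markers of neutrophils were higher with these inflammatory genes, and those of other liver cells differed in direction. The 13 neutrophil markers summed to 854.5 and 118 FPKM at 6 h, against 80.2, 35.7, 3.36 and 16.7 in late regrowth, and 6 of 9 tested were called higher (median 2.61). With the undamaged libraries as reference 0 of the 9 were called (median 2.12). The median against late regrowth was 1.72 without 6 h replicate 1 and 3.34 without 6 h replicate 2. Csf3r, the G-CSF receptor, was at 15.1 and 4.84 FPKM at 6 h, against 0.338 to 1.06 (2.61 ± 0.39, limma adjusted p = 0.00475). Kupffer cell markers summed to 562 and 186 FPKM at 6 h, against 289 to 565, with 4 of 15 called lower and Cd14 called higher. The lower count was 0 without 6 h replicate 2 and 1 without either 14 d library, and Cd14, a lipopolysaccharide receptor, was at 196 and 14.7 FPKM at 6 h, against 1.48 to 4.72 (not called without 21 d replicate 1, 3.44). Sinusoidal endothelial markers summed to 268 and 128 FPKM at 6 h, against 89.4 to 118, with 6 of 17 called higher (3 without 6 h replicate 1, 11 without 6 h replicate 2). Stellate cell markers summed to 140.6 and 150.5 FPKM at 6 h, against 74.8 to 147 in late regrowth, with 4 of 16 called higher and 1 lower. With every library rescaled to the same sum, 1 stellate marker was called higher and 4 lower. Without 21 d replicate 2 these counts were 1 and 1, and with the undamaged libraries as reference 3 and 0. Lymphocyte markers summed to 35.8 and 5.32 FPKM at 6 h, against 1.14 to 8.24, and cholangiocyte markers to 229 and 58.6, against 52.6 to 88.5, with 1 called higher of 4 and of 6 tested. Of the neutrophil markers, the granule gene Camp was at 0.677 FPKM in replicate 1 and listed at 0 in replicate 2 at 6 h, and Ly6g was at 1.31 and 0.198. With the undamaged libraries as reference 0 of the tested Kupffer cell and sinusoidal endothelial markers were called (medians -0.28 and 0.54). The part of these cells in the inflammatory results was not tested. In bulk libraries, fewer cells of a type and less RNA per cell cannot be told apart.

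Genes that build ribosomes were higher in part. Of 43 tested ribosome biogenesis factors, 13 were called higher and 0 lower (median 0.66), as against 0 of 40 cytosolic ribosomal protein genes either way (median -0.03). Nop56, a core protein of box C/D small nucleolar RNPs, was at 24.9 and 23.7 FPKM at 6 h, against 3.97, 5.48, 7.63 and 4.51 in late regrowth (2.01 ± 0.26, limma adjusted p = 0.00299). Mybbp1a, a nucleolar protein of rRNA processing, was at 32.5 and 27.0 FPKM at 6 h, against 6.66 to 9.39 (1.80 ± 0.22, limma adjusted p = 0.00282), and Nop2, an rRNA methyltransferase, at 24.8 and 18.8 against 4.46 to 10.1 (1.63 ± 0.31, limma adjusted p = 0.00943). With every library rescaled to the same sum, 4 were called higher and 0 lower (median 0.13).

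Stress response lists differed in direction. Of 15 genes tested from a heat-shock list, 1 was called higher and 2 lower (median -0.45), 13.3% lower beside 9.98% of all tested genes. The higher one was the transcription factor Hsf1 (1.17), not a chaperone. The lower ones were the cytosolic chaperone Hsp90ab1 (-1.46) and the mitochondrial chaperone Hspd1 (-1.23). Of 22 antioxidant targets of NRF2 tested, 2 were called higher and 5 lower (22.7% lower, median -0.58). The NRF2 list gave 0 higher and 1 lower with the undamaged libraries as reference (median 0.17). Its median was -0.24 without 6 h replicate 1. Of 27 genes of the integrated stress and unfolded protein responses, 6 were called higher and 1 lower (median 0.42, or -0.17 with libraries rescaled to the same sum; 2 higher without 6 h replicate 1 or either 21 d library, 0 with the undamaged libraries as reference). Ddit3, the transcription factor CHOP, was at 17.3 and 14.2 FPKM at 6 h, against 1.58 to 3.77 in late regrowth (2.17 ± 0.27, limma adjusted p = 0.00287). Cdkn1a, the p21 inhibitor of cyclin-dependent kinases, was at 47.4 and 11.9 FPKM at 6 h, against 0.763, 2.56, 0.378 and 2.81 (3.38 ± 0.61, limma adjusted p = 0.00820).

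Genes of cell division were mostly under the filter. Of 42 mitosis genes, 7 passed it, with 0 called in limma. Mki67, a marker of dividing cells, was under the filter at 0.632 and 0.531 FPKM at 6 h, against 0.158 to 0.552. Of 25 DNA replication genes tested, 0 were called higher and 3 lower (median -0.41, or -0.37 without 6 h replicate 2). The share called lower, 12.0%, was near the 9.98% of all tested genes. The lower count was 0 with the undamaged libraries as reference, 8 with every library rescaled to the same sum and 11 with voom on recovered reads. Among the 3 was Tk1, the thymidine kinase, at 1.11 and 0.891 FPKM at 6 h against 2.86 to 4.05 (-1.14 ± 0.17, limma adjusted p = 0.00505). Ccnd1, the G1 cyclin D1, was at 3.80 and 2.44 FPKM at 6 h, against 3.40, 7.27, 8.08 and 6.38 in late regrowth, and was not called (limma adjusted p = 0.0994).

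Cholesterol synthesis and uptake fell broadly: of 29 tested genes, 20 were called lower and 0 higher, with a median of -1.98. Leaving out any one library gave 16 to 20 calls. Idi1 (ENSMUSG00000058258, chromosome 13, 8885501 to 8892451), which isomerises isopentenyl diphosphate, was at 0.630 and 0.970 FPKM at 6 h, against 71.3, 31.2, 40.2 and 27.2 in late regrowth (-4.50 ± 0.38, limma adjusted p = 0.00125). Fdft1, squalene synthase, was at 1.32 and 3.17 FPKM at 6 h, against 70.0, 52.9, 32.9 and 36.6 (-3.92 ± 0.38, limma adjusted p = 0.00183), and Msmo1, a sterol methyl oxidase, at 3.0 and 4.29 against 43.7 to 86.6 (-3.58 ± 0.34, limma adjusted p = 0.00161). Both 6 h libraries were below every late one for these 3 genes.

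Other steps of the pathway fell too. Hmgcs1, which makes HMG-CoA, was at 3.05 and 13.4 FPKM at 6 h, against 164, 87.9, 43.9 and 56.6 in late regrowth (-3.36 ± 0.66, limma adjusted p = 0.0104). Sqle, squalene epoxidase, was at 1.17 and 4.36 FPKM at 6 h, against 14.2 to 45.5 (-2.80 ± 0.52, limma adjusted p = 0.00876).

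Of the regulators, Insig1, a brake on SREBP processing and itself an SREBP target, was at 3.68 and 13.6 FPKM at 6 h, against 126, 160.5, 113 and 138 in late regrowth (-4.02 ± 0.46, limma adjusted p = 0.00232). Srebf2, the sterol-regulated transcription factor, was at 3.05 and 5.22 FPKM at 6 h, against 6.64 to 9.71, with a limma adjusted p = 0.0420 but a difference of -0.83, under the threshold. Insig2 was at 309 and 65.6 FPKM at 6 h, against 31.5, 84.5, 21.8 and 93.3, and was not called. Scap, the SREBP escort, was not called either (-0.29).

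Promoters of SREBP targets carry sterol response elements beside sites for NF-Y, which binds CCAAT. The 250 bases before the RefSeq start (GRCm38.p6) are shown for Hmgcs1, chr13:119690101-119690350 on the plus strand, with a sterol response element (TCACNCCAC) in capitals, and for Idi1, chr13:8885356-8885605, and Insig1, chr5:28071162-28071411, both on the plus strand, with the CCAAT box (ATTGG, or CCAAT on the other strand) in capitals.
Hmgcs1: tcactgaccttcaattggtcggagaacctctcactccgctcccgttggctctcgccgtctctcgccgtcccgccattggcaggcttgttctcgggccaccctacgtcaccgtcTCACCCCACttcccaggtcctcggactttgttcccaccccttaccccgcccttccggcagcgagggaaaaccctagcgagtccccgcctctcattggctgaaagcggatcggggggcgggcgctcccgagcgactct
Idi1: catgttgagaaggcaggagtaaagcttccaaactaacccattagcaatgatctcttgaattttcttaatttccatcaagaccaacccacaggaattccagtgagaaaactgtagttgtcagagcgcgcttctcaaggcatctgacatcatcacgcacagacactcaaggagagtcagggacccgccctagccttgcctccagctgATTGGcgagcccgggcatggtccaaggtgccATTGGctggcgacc
Insig1: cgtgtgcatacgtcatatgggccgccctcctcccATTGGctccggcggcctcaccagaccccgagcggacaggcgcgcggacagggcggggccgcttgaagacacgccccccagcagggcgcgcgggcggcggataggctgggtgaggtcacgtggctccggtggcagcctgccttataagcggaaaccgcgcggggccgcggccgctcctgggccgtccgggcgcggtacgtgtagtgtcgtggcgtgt
The element of Hmgcs1 began 137 bases before the RefSeq start, the boxes of Idi1 45 and 14 bases before it, and that of Insig1 216 bases before it. The RefSeq start used for Idi1 lies inside the gene coordinates given above, and so do both of its boxes. Of the 20 cholesterol genes called lower, 12 had a promoter in the table, and 11 of these (91.7%) held ATTGG within 250 bases before to 50 after the start. It was in 19 of 21 tested cholesterol genes with a promoter (90.5%), 42.9% of all tested genes with one and 41.1% of all genes in the table. TCACNCCAC was in 1 of the 12, Hmgcs1, and in 1.49% of tested genes. ATTGG is short and frequent, and its presence says nothing of NF-Y.

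Fatty acid synthesis fell in part, while lipid droplet genes split. Of 23 lipogenic genes, 8 were called lower and 1 higher (median -0.85). The median was -0.23 without 6 h replicate 1 and -1.33 without 6 h replicate 2, and 13 were called lower with every library rescaled to the same sum. Gpam, which starts glycerolipid synthesis, was at 1.69 and 1.76 FPKM at 6 h, against 20.2, 21.2, 37.0 and 23.7 in late regrowth (-3.24 ± 0.27, limma adjusted p = 0.00125). Srebf1 was at 9.17 and 7.72 FPKM at 6 h, against 19.2, 49.0, 46.5 and 55.2 (-2.10 ± 0.43, limma adjusted p = 0.0120), whereas Fasn, fatty acid synthase, was at 8.89 and 29.8 against 25.7, 31.3, 38.5 and 27.6 and was not called. Dgat1, which completes triglyceride synthesis, was the gene called higher, at 29.2 and 23.8 FPKM at 6 h, against 4.06 to 6.88 (2.10 ± 0.23, limma adjusted p = 0.00230).

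Of 17 lipid droplet and lipolysis genes tested, 6 were called higher and 2 lower (median 0.87; 0.29 without 6 h replicate 2 and 0.39 with every library rescaled to the same sum). The higher count was 3 without 14 d replicate 2, and the lower count was 1 without any one library except 6 h replicate 1. Plin4, a droplet coat protein, was at 19.6 and 16.4 FPKM at 6 h, against 0.139, 0.133, 0.282 and 0.219 in late regrowth (3.99 ± 0.16, limma adjusted p = 0.000283). Plin2, the main hepatocyte droplet coat, was at 720 and 322 FPKM at 6 h, against 48.4, 73.1, 119 and 78.3 (2.65 ± 0.48, limma adjusted p = 0.00792). Cideb, the liver member of the Cidec family, went the other way, at 2.52 and 1.98 FPKM at 6 h against 29.1, 30.6, 39.2 and 31.0 (-3.36 ± 0.22, limma adjusted p = 0.00104). Cidec and Cideb thus stood at opposite ends of the same list.

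**Figure D3:**
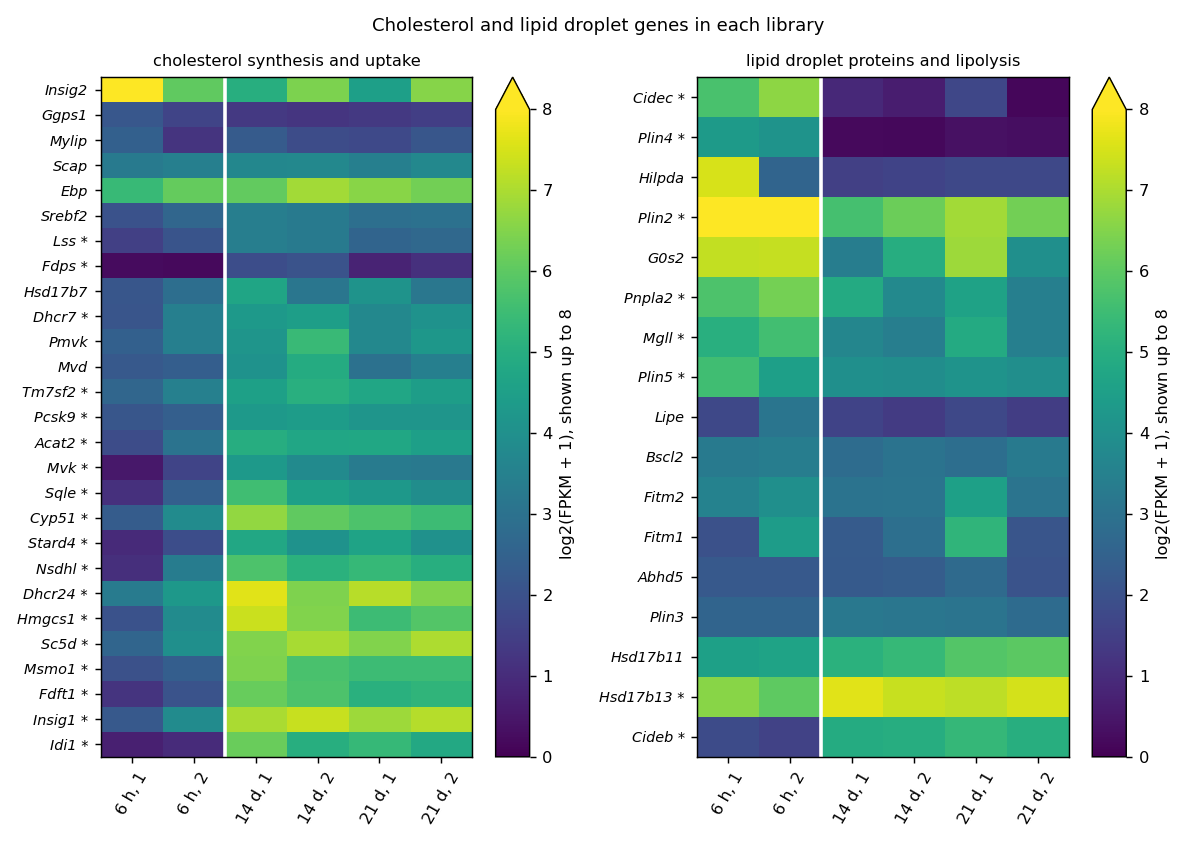
Heat maps of log2(FPKM + 1) for 27 of the 29 tested cholesterol genes (left) and lipid droplet genes (right), 1 column per library with 6 h left of the white line and late regrowth right of it, ordered by difference; an asterisk marks a called gene. The 18 called cholesterol genes shown are darker at 6 h, and in the lipid droplet map Cidec and Plin4 are bright at 6 h alone while Cideb, at the bottom, is dark there.

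Targets of PPARA, the fatty acid sensor, and fatty acid oxidation genes gave 7 higher and 5 lower calls of 35 tested (median -0.16). The shares were 20% higher and 14.3% lower, beside 10.6% and 9.98% of all tested genes. Angptl4, a secreted inhibitor of lipoprotein lipase, was at 91.8 and 148 FPKM at 6 h, against 8.02 to 16.6 in late regrowth (3.14 ± 0.35, limma adjusted p = 0.00230). Cyp4a14, a fatty acid omega-hydroxylase, was at 280 and 103 FPKM at 6 h, against 11.7, 11.1, 3.46 and 32.0 (3.80 ± 0.76, limma adjusted p = 0.0113; 3.08 and not called without 6 h replicate 1). The lower calls were mitochondrial enzymes: Acads, Hadh, Hadha and Hadhb of fatty acid oxidation and Bdh1 of ketone body synthesis. Bdh1 was at 5.98 and 9.55 FPKM at 6 h, against 29.3 to 55.0 (-2.09 ± 0.33, limma adjusted p = 0.00563). The median of the list was 0.29 without 6 h replicate 1. Without 6 h replicate 1 or 14 d replicate 2 the higher count was 4, and without 14 d replicate 1 the lower count was 3. There were 4 higher and 0 lower with the undamaged libraries as reference, and 4 and 9 with every library rescaled to the same sum.

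The differentiated functions of hepatocytes were lower. Of 34 cytochrome P450 genes tested, 17 were called lower and 0 higher (median -1.49; 11 without 6 h replicate 1 or 21 d replicate 2, 10 without 21 d replicate 1). The median was -0.92 without 6 h replicate 1, and 10 were called lower with the undamaged libraries as reference and 26 with every library rescaled to the same sum. Cyp2c29 was at 14.5 and 45.4 FPKM at 6 h, against 363, 370, 430 and 576 in late regrowth (-4.0 ± 0.48, limma adjusted p = 0.00275). Cyp2f2, a periportal enzyme, was at 65.5 and 164 FPKM at 6 h, against 362 to 558 (-2.24 ± 0.45, limma adjusted p = 0.0112), and Cyp3a11 at 50.2 and 284 against 406 to 543, without overlap but with a limma adjusted p = 0.0586. Of 38 conjugation enzymes, 22 were called lower and 1, Nnmt, a methyltransferase of nicotinamide, higher (median -1.36), with 14 lower with the undamaged libraries as reference. Gsta3, a glutathione transferase, was at 28.6 and 34.6 FPKM at 6 h, against 289 to 382 (-3.31 ± 0.30, limma adjusted p = 0.00138). The Cyp2c and Ugt1a genes are close paralogs or share exons, so single members are uncertain.

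Bile acid handling fell at both synthesis and transport. Of 16 synthesis genes, 6 were called lower and 0 higher (median -0.95), with 3 lower with the undamaged libraries as reference and 12 with every library rescaled to the same sum. Of 17 transporters of bile acids and organic ions, 9 were called lower and 0 higher (median -1.31; 14 without 6 h replicate 2 and 15 rescaled to the same sum). Slc10a1, the bile acid importer NTCP, was at 31.9 and 43.7 FPKM at 6 h, against 345, 153, 359 and 243 in late regrowth (-2.77 ± 0.43, limma adjusted p = 0.00509). Slco1b2, an organic anion importer, was at 17.5 and 24.9 FPKM at 6 h, against 177 to 324 (-3.49 ± 0.35, limma adjusted p = 0.00188). Nr0b2, the bile acid-induced repressor SHP, was at 0.408 and 3.56 FPKM at 6 h, against 31.5, 32.1, 71.1 and 29.3 (-3.95 ± 0.54, limma adjusted p = 0.00362), and fell, as Cyp7a1 did. Cyp8b1, the 12-alpha-hydroxylase, was at 35.5 and 38.2 FPKM at 6 h, against 40.1 to 132.5, and was not called (limma adjusted p = 0.138). Aqp8, a water channel, was at 3.90 and 4.82 FPKM at 6 h, against 16.8, 135, 24.9 and 106 (-3.25 ± 0.84, limma adjusted p = 0.0259; -3.38 to -2.90 and not called without either 6 h library or 21 d replicate 2).

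In sugar metabolism, glycogen enzymes were among the genes that fell, while the gluconeogenic enzymes G6pc and Pck1 were not called. Of 17 gluconeogenesis and glycogen genes tested, 7 were called lower and 1, the coactivator Crtc2, higher (median -0.93; 0 higher without 6 h replicate 1, either 14 d library or 21 d replicate 1). The lower count was 3 with the undamaged libraries as reference. Pygl, liver glycogen phosphorylase, was at 7.17 and 11.8 FPKM at 6 h, against 47.9, 61.3, 70.0 and 67.9 in late regrowth (-2.60 ± 0.30, limma adjusted p = 0.00232), and Ppp1r3b, a glycogen-targeting phosphatase subunit, at 1.47 and 3.20 against 17.9 to 34.8 (-2.99 ± 0.37, limma adjusted p = 0.00287). G6pc was at 31.5 and 31.0 FPKM at 6 h, against 20.9, 119, 68.1 and 70.2, and Pck1 at 187 and 948 against 686, 318, 365 and 172, so that both overlapped. Of 20 glycolysis genes, 4 were called higher and 7 lower (median -0.30, -0.10 without 6 h replicate 1, -0.76 without 6 h replicate 2), and 2 each way with the undamaged libraries as reference. Pklr, the liver pyruvate kinase, was at 1.57 and 2.69 FPKM at 6 h, against 29.9 to 84.2 (-3.81 ± 0.43, limma adjusted p = 0.00230). Pfkfb3, which makes the activator of phosphofructokinase, rose to 8.59 and 6.11 FPKM at 6 h, against 0.711 to 1.36 (2.06 ± 0.22, limma adjusted p = 0.00223).

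Amino acid catabolism gave 12 lower and 5 higher calls of 36 tested (median -1.05). The median was -0.26 without 6 h replicate 1, and 21 were called lower without 6 h replicate 2 (median -1.58). There were 1 lower and 1 higher with the undamaged libraries as reference, and 25 and 3 with every library rescaled to the same sum. Afmid, of the tryptophan pathway, was at 1.03 and 0.654 FPKM at 6 h, against 6.19 to 9.06 in late regrowth (-2.19 ± 0.20, limma adjusted p = 0.00149). The higher ones included Sdsl, a serine dehydratase-like enzyme, at 100 and 62.5 FPKM at 6 h against 3.10 to 8.89 (3.63 ± 0.37, limma adjusted p = 0.00197), and Tat, tyrosine aminotransferase, at 1312 and 1130 against 347 to 384 (1.74 ± 0.31, limma adjusted p = 0.00790). Of 28 hepatocyte transcription factors, 1 was called higher, Cebpb, and 1 lower, Cebpa, at 21.8 and 55.3 FPKM at 6 h against 71.3 to 181 (-1.66 ± 0.52, limma adjusted p = 0.0473; -1.88 to -1.01 and not called without any one library except 6 h replicate 2). The other factors on the list were not called, and its median was -0.10.

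Nitrogen disposal and export followed the same direction with more spread. Of 15 urea cycle and nitrogen genes, 5 were called lower and 1 higher (median -0.93), but the lower count was 2 without 6 h replicate 1 or either 21 d library, 3 without either 14 d library and 8 without 6 h replicate 2. It was 0 with the undamaged libraries as reference and 10 with every library rescaled to the same sum, and the median was -0.35 without 6 h replicate 1. Cps1, the first enzyme of the urea cycle, was at 39.2 and 317 FPKM at 6 h, against 966, 503, 920 and 699 in late regrowth (-2.73 ± 0.78, limma adjusted p = 0.0355; -2.92 to -1.23 and not called without any one library except 6 h replicate 2). Of 55 secreted hepatocyte proteins, 14 were called lower and 2 higher (median -0.85; 9 lower without 6 h replicate 1, 6 without 21 d replicate 1, 8 without 21 d replicate 2, and 23 without 6 h replicate 2). The lower count was 35 with every library rescaled to the same sum. F13b, a subunit of coagulation factor XIII, was at 20.7 and 26.9 FPKM at 6 h, against 91.7 to 119 (-2.04 ± 0.27, limma adjusted p = 0.00343).

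Of 16 genes of the growth hormone and IGF axis, 3 were called lower and 1 higher, with a median of 0.03 that became -0.39 with every library rescaled to the same sum. The shares were 18.8% lower and 6.25% higher, beside 9.98% and 10.6% of all tested genes. The lower count was 2 without any one late library. Ghr, the growth hormone receptor, was at 7.70 and 18.4 FPKM at 6 h, against 40.9, 42.8, 84.1 and 65.5 in late regrowth (-2.13 ± 0.44, limma adjusted p = 0.0122). Igfals, which stabilises circulating IGF1, was at 4.35 and 14.5 FPKM at 6 h, against 37.0 to 65.8 (-2.36 ± 0.45, limma adjusted p = 0.00977). Igfbp1, an early hepatectomy-induced IGF-binding protein, was at 1450 and 144.5 FPKM at 6 h, against 91.7, 182, 6.67 and 72.1, so that replicate 2 lay within the late range and the gene was not called (limma adjusted p = 0.127). Of 23 male-biased liver genes, 5 were called lower and 0 higher (median -0.64; 3 lower without 21 d replicate 1 or either replicate 2 late library, 11 with every library rescaled to the same sum), Hsd3b5 among them. Of 12 female-biased liver genes tested, 2 were called lower and 1 higher (median -0.30). The shares called lower were 21.7% of the male-biased and 16.7% of the female-biased genes, beside 9.98% of all tested genes.

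Timp1 and Inhbb were among the genes called higher. Timp1, a metalloproteinase inhibitor, was at 20.8 and 9.0 FPKM at 6 h, against 0.382 and 1.01 at 14 d and listed at 0 and at 0.633 at 21 d (3.34 ± 0.38, limma adjusted p = 0.00232). Inhbb, a subunit of activin B, was at 25.9 and 4.25 FPKM at 6 h, against 0.201 to 0.847 in late regrowth (3.07 ± 0.57, limma adjusted p = 0.00919). Replicate 1 was the higher 6 h library for both. Of 26 growth factor receptors and ligands tested, 3 were called higher and 1 lower, a share of 11.5% higher beside 10.6% of all tested genes. Without 6 h replicate 2 the counts were 6 and 6, and with every library rescaled to the same sum they were 3 and 6 (median -0.51).

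Iron genes went both ways. Slc40a1, the iron exporter ferroportin, was at 2.70 and 2.64 FPKM at 6 h, against 22.7, 11.6, 11 and 13.5 in late regrowth (-2.04 ± 0.30, limma adjusted p = 0.00445). Hmox1, haem oxygenase, was at 93.1 and 33.8 FPKM at 6 h, against 5.77 to 14.3 (2.40 ± 0.47, limma adjusted p = 0.0104). Of 26 metallothionein, iron and haem genes tested, 6 were called higher and 2 lower (median -0.27, or 0.10 without 6 h replicate 1). Without 6 h replicate 2 the counts were 3 and 5, and with the undamaged libraries as reference 1 and 1.

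Undamaged liver gave a side view of the same genes, in which the 2 libraries differ. Cidec was at 1.09 and 0.788 FPKM in undamaged liver, within its late range, whereas Plin4 at 0.668 and 1.18 and Gadd45g at 24.1 and 30 were above every late library and below both 6 h libraries. Mt1, at 1390 and 2.62 FPKM, and Saa2, at 24079 and 5.91, differed widely between the undamaged libraries. The cholesterol genes were high there as in late regrowth, with Fdft1 at 61.3 and 41.5 FPKM, Insig1 at 212 and 163 and Idi1 at 15.4 and 33.1, and 23 of the 29 tested were called lower at 6 h against the undamaged pair. The acute-phase genes split by library, with Lcn2, an iron-scavenging lipocalin, at 3502 and 2.16 FPKM in undamaged liver, 1105 and 820.2 at 6 h, and 363, 48.4, 46.1 and 8.39 in late regrowth. The Lcn2 call (4.17 ± 1.24, limma adjusted p = 0.0401) was lost without any one library except 14 d replicate 1 (3.33 to 4.38).

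**Figure D4:**
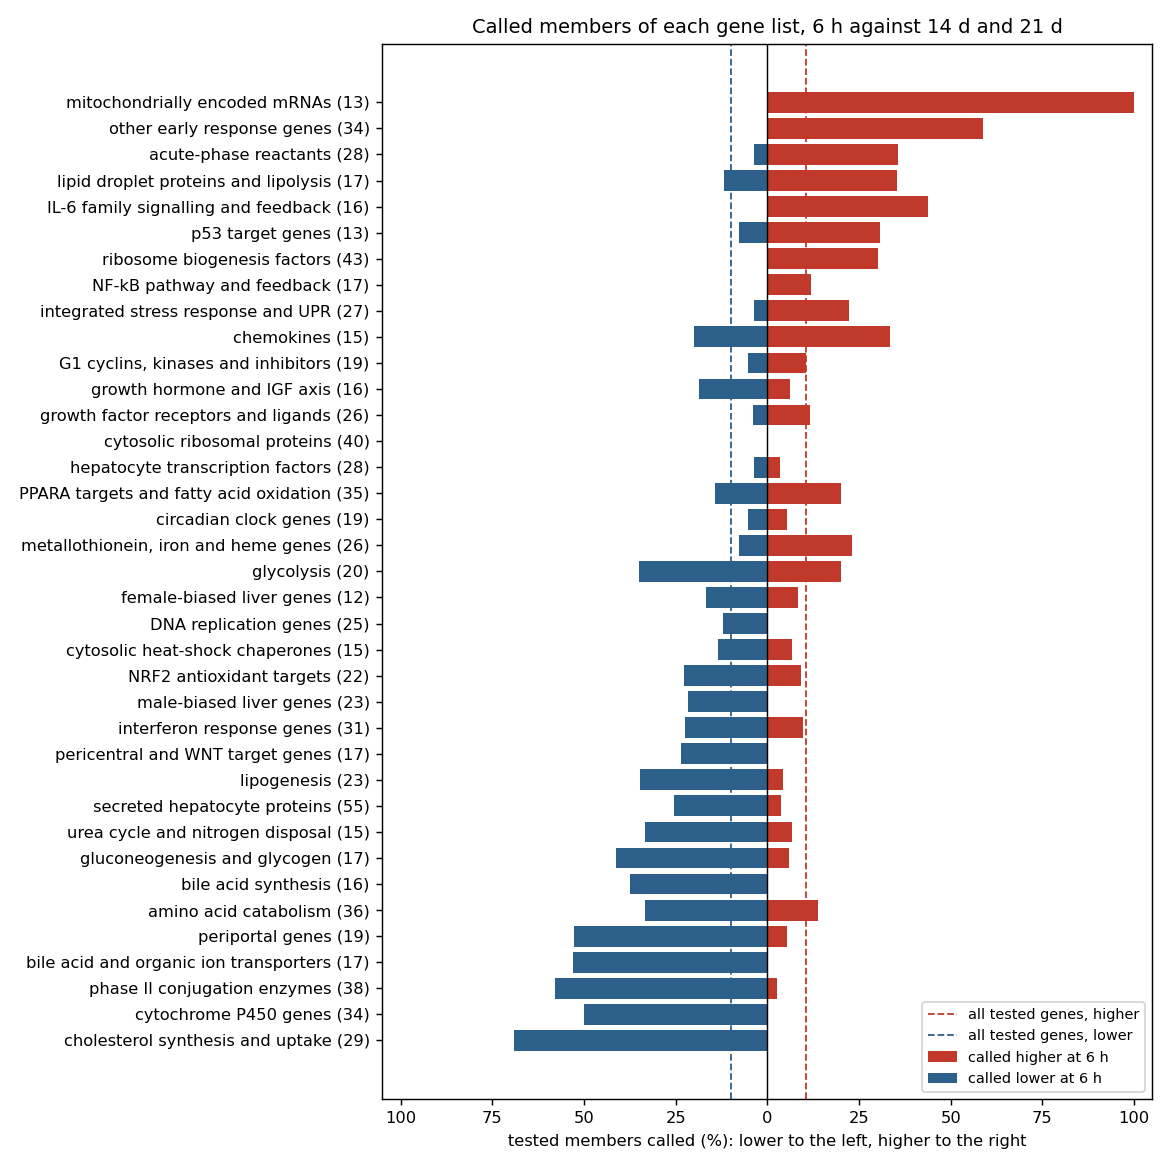
Share of tested members called higher (red, to the right) or lower (blue, to the left) at 6 h, in percent on the horizontal axis, for each gene list with at least 10 tested members (number in brackets), ordered by median difference; dashed lines mark the shares of all tested genes, 10.6% and 9.98%. Cholesterol, P450, conjugation and transporter lists lie far left of the dashed line, and early response and mitochondrial lists far right.

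All 13 mitochondrially encoded mRNAs were called higher (median 2.87). mt-Co2, a cytochrome oxidase subunit, was at 1320 and 4860 FPKM at 6 h, against 59.8, 157, 60.8 and 327 in late regrowth (4.42 ± 0.83, limma adjusted p = 0.00943). Replicate 2 was the higher 6 h library for all 13, and it also held the larger mitochondrial share of reads; the part of that share in these calls was not tested. Without that library 8 were called and without 21 d replicate 1 there were 7. With the undamaged libraries as reference 0 were called.

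Clock genes differed between the late replicates. Dbp, an output of the clock, was at 0.840 and 5.0 FPKM at 6 h, against 20.6 and 0.128 at 14 d and 18 and 0.141 at 21 d, and Arntl, its opposite in phase, at 2.83 and 0.268 against 0.254, 3.21, 0.184 and 3.47. Replicate 1 was high for Dbp and low for Arntl at both late times, and replicate 2 the reverse; at 6 h the replicates stood the other way round. Neither gene was called. Per1, a clock gene also induced by stress hormones, was at 7.25 and 22.9 FPKM at 6 h, against 2.19, 0.409, 1.84 and 0.337 (2.79 ± 0.53, limma adjusted p = 0.00944), above the late library of the same submission in each case. The part of time of day in the differences was not tested.

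**Figure D5:**
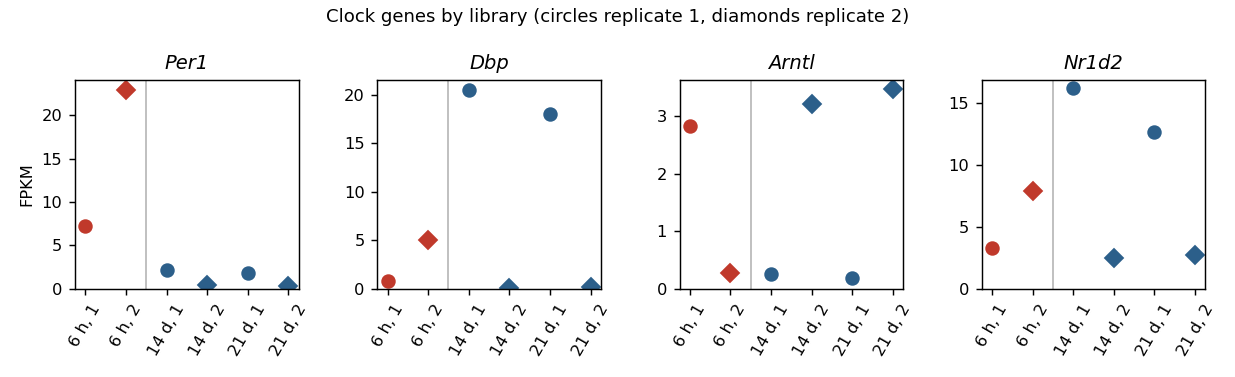
FPKM of Per1, Dbp, Arntl and Nr1d2 in each library, with 6 h (red) left of the grey line and late regrowth (blue) right of it; circles are replicate 1 and diamonds replicate 2. Dbp and Nr1d2 are high in replicate 1 and low in replicate 2 of both late times, Arntl is the reverse, and Per1 is highest at 6 h.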

How the data were processed

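RNA sequencing of mouse samples was deposited as 1 table of FPKM for 54532 genes in 20 libraries, 2 of them of hepatocyte organoids. Per the submitters' processing notes, the authors used HISAT2 2.0.5 and the mm10 genome. Not given in the sources used here are the counting tool, the annotation, the strandedness and any scaling between libraries. Gene names came from GENCODE M21 (54409 IDs matched). Reads were recovered from the FPKM steps and exon lengths (97.9% to 98.7% of values up to 20 reads whole within 0.05 reads) and used for depth and for 1 alternative.

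The 2 libraries at 6 h were compared with the 4 at 14 d and 21 d. Genes at 1 FPKM or more in at least 2 of the 6 libraries were tested on log2(FPKM + 1) with limma 3.58.1 in R 4.3.3 (trend, robust), with p-values adjusted over all 10834. Fold changes on this scale understate those of low genes. The fit was tested on simulated data with independent noise per gene and library. That simulation holds no shift between whole libraries, so it says nothing of the effect of scaling. One undamaged column was matched to its group only. The number of other columns of values was 0.

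Gene names in the text follow a rule: the 10 called genes with the largest change each way, at a mean of at least 5 FPKM, up to 3 called members per list with the largest t, and a set given whatever its values. Btg2, Plin2, Nnmt, Insig2, Scap, members named to complete a list's calls and marker genes fall outside it and were chosen after their values were seen. Members and the 48 lists were chosen with earlier results of these data known. A few genes the rule names are not reported here.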

Additional observations from a re-analysis of the deposited data

Results flagged for a closer look

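Among 170 named genes, 11 had 1 of the 4 late libraries far from the other 3 on the log2(FPKM + 1) scale, with a gap to the nearest library, as a share of the whole range, above Dixon's critical value for 4 samples. Chance flags about 1 in 20 groups, or 8.5 here. Replicate 1 at 14 d stood apart for Mt2 (0.903), Itih3 (0.897), Slc38a2 (0.934), Srebf1 (0.836) and Cyp2f2 (0.902). Replicate 1 at 21 d stood apart for Hspd1 (0.89), Bdh1 (0.847), Nr0b2 (0.897), Susd4 (0.832) and Hamp (0.94). Replicate 2 at 14 d stood apart for Fos (0.838). Slc38a2, an amino acid transporter, was at 26.0 and 37.9 FPKM at 6 h, against 14.4 in 14 d replicate 1 and 8.16 to 8.48 in the other late libraries. Itih3, an inter-alpha-trypsin inhibitor chain, was at 2009 and 1089 FPKM at 6 h, against 676 in 14 d replicate 1 and 269 to 296 in the others.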

How the results depend on the processing

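The 1144 higher and 1081 lower calls became 671 and 541 with 14 d alone as reference, 386 and 508 with the undamaged libraries as reference, 415 and 541 with a pseudocount of 5, and 1728 and 1679 on the adjusted p alone. Requiring 5 FPKM left 634 higher. Rescaling every library to the same sum gave 471 higher and 2362 lower calls and moved the median of all genes to -0.45. Voom on recovered reads gave 899 and 2124, with a median of -0.36. Relative to that shift the cholesterol list stood at -2.04 and -2.41. Rescaling to the same sum without mitochondrial, globin and Saa genes gave 1250 and 898, with a median of 0.09. Rescaling to a median ratio of 1 gave 1235 and 1011, with a median of 0.02. The split between higher and lower thus depended on scaling, and moved most with the same sum and with voom. Leaving out any one library gave 949 to 1333 higher and 853 to 1380 lower calls. The differences between replicates 1 and 2 correlated at 0.394 between 14 d and 21 d, but at -0.181 and -0.336 between 6 h and these times, so the numbers were not taken to pair the 6 h libraries with the late ones. A fit with the replicate number as a block called 1093 and 1026. With the undamaged libraries as reference Rgs5 stood at 0.31 and Jun at -0.10, against -1.18 and 1.61. Of 154 named genes called, 111 kept their call without any one library. With 2 libraries at 6 h, depth and replication limit low genes most.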
